A study of Drosophila melanogaster with 7 samples.

Results

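The regions described are the distal ends of 4 chromosome arms of the Drosophila genome, the outermost 500 kb of 2L, 3L and X and the outermost 579 kb of 3R. A call belonged to a region if the midpoint of its interval on dm6 lay inside it, so the choice used position alone. Of 30828 fork calls in the 5 untreated pulse libraries, 467 on 413 reads lay in these windows, together with 21 of 1513 origins and 33 of 1984 terminations. Of 1529 origins of a BrdU gradient library, 17 lay there.

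All libraries were Nanopore libraries of genomic DNA from S2 cells, an established line of embryonic origin, and the DNA of each came from a pair of flasks labelled together. In the pulse libraries, cells took up 10 µM EdU and afterwards 10 µM BrdU, and were chased for 20 min in 50 µM thymidine, without any drug. The control, which belongs to a comparison with hydroxyurea that is not analysed here, and the replicates 1 and 2 received 7 min of EdU and 15 min of BrdU, and the replicates 3 and 4 received 3 min and 6 min. The gradient cells received BrdU in steps of 0.5 µM, each of 2.5 min, up to 12 µM, followed by 30 min at the last concentration.

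A replication fork copies DNA in a single direction away from the origin where it started, and termination is the meeting of a pair of converging forks. At the end of a linear chromosome no fork can arrive from outside, so the last stretch is copied either by a fork running towards the end or by forks from an origin close to the end itself. Drosophila telomeres carry arrays of telomere-specific retrotransposons rather than short telomerase repeats, and such arrays are largely missing from the assembled arms. The arm ends used here are therefore the ends of the assembly, and the telomere itself was not observed.

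A fork is called tip-directed if it ran towards the arm end, that is leftward on 2L, 3L and X and rightward on 3R, and inward otherwise. Reads carrying forks reached the arm end on 2L and 3R. On 3L and X the outermost such read began 50.2 and 55.02 kb inside the assembly (on 3L, 4 reads of 2 libraries began at that same base within the tolerance given below), and the outermost fork midpoints lay 57.7 and 72.7 kb from the end, against 3.92 kb on 2L and 4.89 kb on 3R. The windows held 22 forks of the control, 144 and 216 of the 7 and 15 min replicates 1 and 2, and 47 and 38 of the 3 and 6 min replicates 3 and 4. By arm, 221 forks lay on 3R, 114 on 3L, 96 on 2L and 36 on X, so 3R carried nearly as many as the other arms together and X could be described only coarsely.

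**Figure D1:**
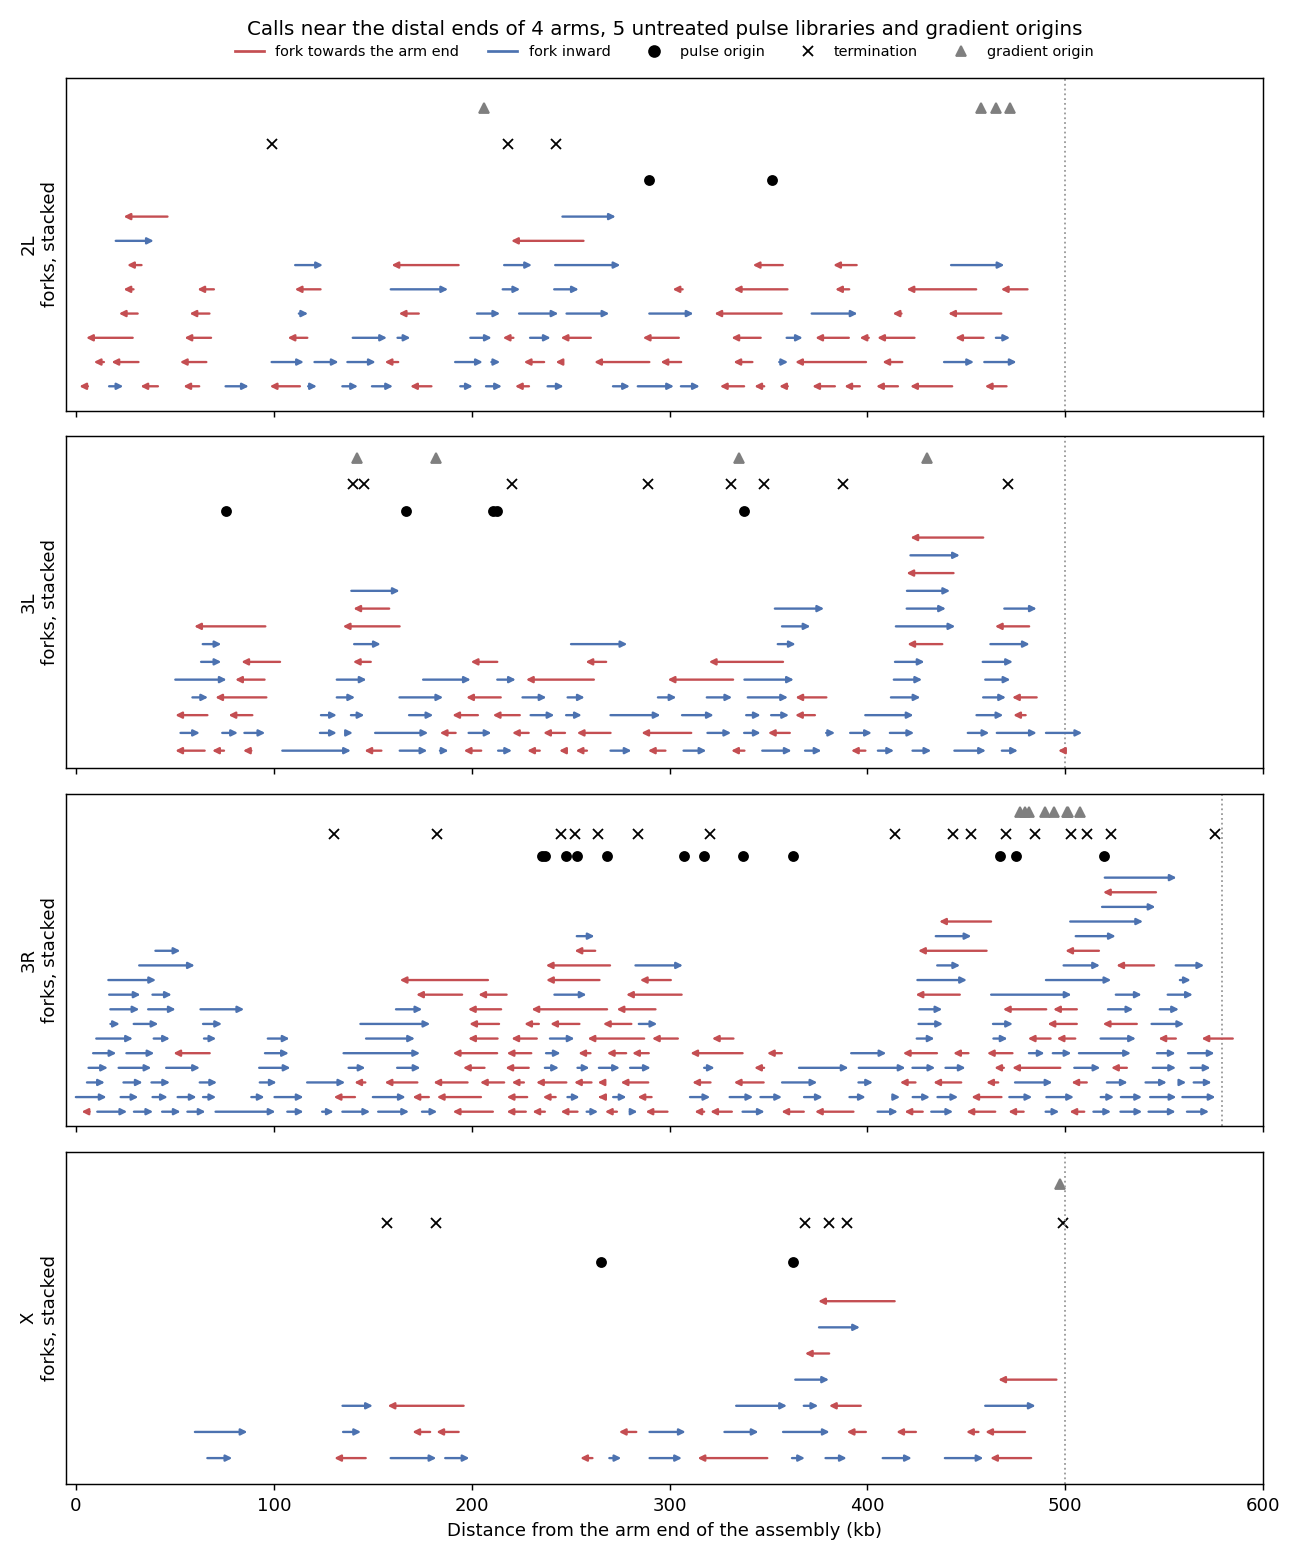
Forks of the 5 untreated libraries as arrows along the distance from the arm end (kb), stacked without a vertical scale, with pulse origins, terminations and gradient origins above and the window limit dotted. Inward arrows fill the outermost 120 kb of 3R, where 40 of 42 forks ran inward, while 14 of 17 forks in the outermost 100 kb of 2L were tip-directed.

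The first question was whether forks near the ends ran mostly towards them. They did not. Tip-directed forks made up 50.0% of window forks in the control (95% Wilson interval 30.7 to 69.3%), 42.4% (34.6 to 50.5%) and 44.9% (38.4 to 51.6%) in the 7 and 15 min replicates 1 and 2, and 48.9% (35.3 to 62.8%) and 31.6% (19.1 to 47.5%) in the 3 and 6 min replicates 3 and 4. No library was above 50%, and only the 3 and 6 min replicate 4 had an interval wholly below it. In the rest of the same arms the shares lay between 48.2% and 50.1%. The windows were lower by 5.96 ± 7.73 percentage points (SD, n = 5 libraries), in 4 of 5 libraries (exact two-sided sign-flip test, p = 0.188, and p = 0.5 after Benjamini-Hochberg adjustment over 8 tests). In the control the difference was only -0.107 points. Leaving out the 3 and 6 min replicate 4 brought the mean difference to -2.85 points, and leaving out 3R to -1.15 points. The smallest p that 5 libraries allow is 0.0625, so none of the 8 tests could pass 0.05. Intervals cover counting error only, and forks sharing a read are not independent.

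The share did not rise towards the end. Pooled over libraries and arms it was 34.7% (24.8 to 46.2%) within 100 kb of the end, 33.8% (24.0 to 45.1%) from 100 to 200 kb, 59.8% (50.3 to 68.6%) from 200 to 300 kb, 50.0% from 300 to 400 kb and 43.6% from 400 to 500 kb. The part of 3R beyond 500 kb gave 23.8% (13.5 to 38.5%). The outer 250 kb held a lower share than the inner part of the windows in 3 of 5 libraries, a higher one in the 7 and 15 min replicate 2 and an equal one in the control, with a mean difference of -7.67 ± 11.8 points (SD, n = 5; exact sign-flip test, p = 0.375, adjusted p = 0.5). Without the outermost 100 kb of 3R, left out after its values were seen, the difference was 0.938 points.

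These averages joined arms that ran in opposite directions. In the outermost 100 kb of 3R 2 of 37 forks were tip-directed, a share of 5.41% (95% Wilson interval 1.50 to 17.7%). The control had 0 of 1, the 7 and 15 min replicates 0 of 14 and 2 of 13, and the 3 and 6 min replicates 0 of 4 and 0 of 5. Forks running inward from the end were thus in the majority in each of the 5 libraries, and the 37 forks lay on 37 different reads.

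In the outermost 100 kb of 2L 14 of 17 forks were tip-directed, 82.4% (59.0 to 93.8%). The control had 2 of 2, the 7 and 15 min replicates 6 of 6 and 4 of 6, and the 3 and 6 min replicates 1 of 1 and 1 of 2. In each of the 5 libraries the share was higher on 2L than on 3R. These tiles were singled out after their values were seen, and the contrast was not tested. The 3L end gave 9 of 16, or 56.2% (33.2 to 76.9%), and X had 2 forks within 100 kb, both inward.

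**Figure D2:**
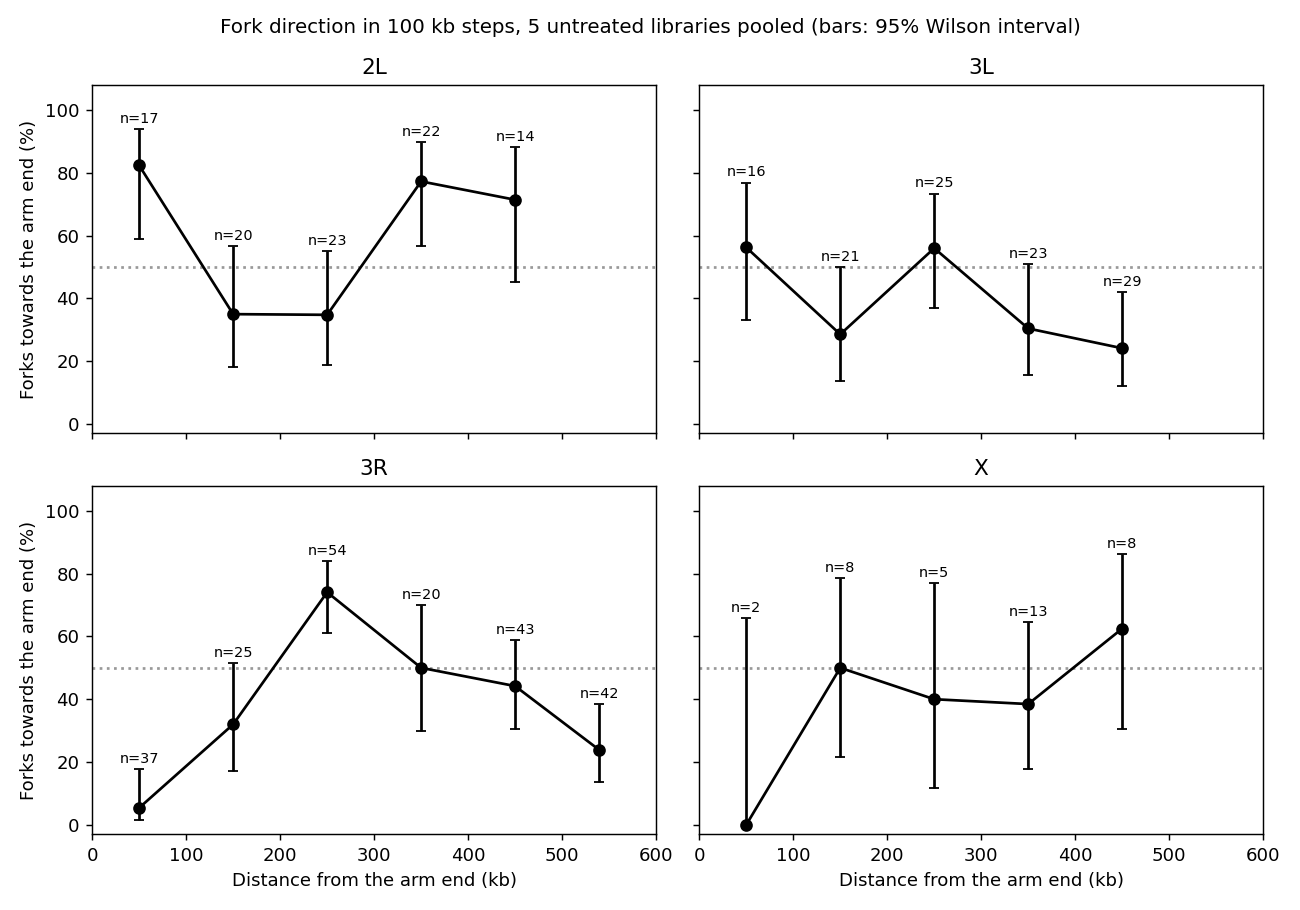
Percentage of forks running towards the arm end by distance from it (kb), in 100 kb steps and, on 3R, a last step to 579 kb. Points pool the 5 untreated libraries, bars are 95% Wilson intervals and n is the number of forks. The share falls from 82.4% to 35.0% over the outer steps of 2L and rises from 5.41% to 74.1% on 3R.

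The 2 tip-directed forks among the 37 of the outermost 100 kb of 3R were followed into subsets of reads and calls. With so few, no subset of the sizes below could lack an inward majority. The counts therefore do not test whether it depends on read type, caller version or strand. Of 16 forks on reads that came within 1 kb of the arm end 1 was tip-directed, and of 21 on other reads also 1. None was tip-directed among 13 forks on reads of 50 kb or more, among 11 complete forks (defined below), among 10 forks called by the newer DNAscent version or among 14 read on the lagging strand. Of 23 forks read on the leading strand 2 were tip-directed. The outermost tip-directed fork, 4.89 kb from the end, had a track of 4.05 kb, and the next lay 58.4 kb from the end. The 5 forks centred on Map205, which encodes a microtubule-associated protein and spans 3R 32055279 to 32068441 near the arm end, all ran inward. These subsets were formed after the values were seen.

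Strong polarity was common along the arms, so these tiles have to be read against the rest. In 100 kb tiles with 10 or more forks, the Wilson interval of the tip-directed share left out 50% in 7 of 17 window tiles, or 41.2%, against 44.5% of all 963 such tiles on the 4 arms and 44.6% of the 946 outside the windows. It lay wholly on the tip-directed side in 3 window tiles (22.4% of all tiles) and on the inward side in 4 (22.1% of all tiles). The windows thus held about as many polar tiles as the background. Window tiles had a median share of 38.5% (5.41 to 82.4%) and the other tiles one of 50.0% (quartiles 30.0 and 68.8%). Of the 963 tiles 26 had a share as low as that of the 3R end, and 106 had one at least as high as that of the 2L end. Each count includes the end tile itself. Fork numbers were not matched, and tiles with only 10 forks reach extreme shares more easily than 1 with the 37 forks of the 3R end.

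**Figure D3:**
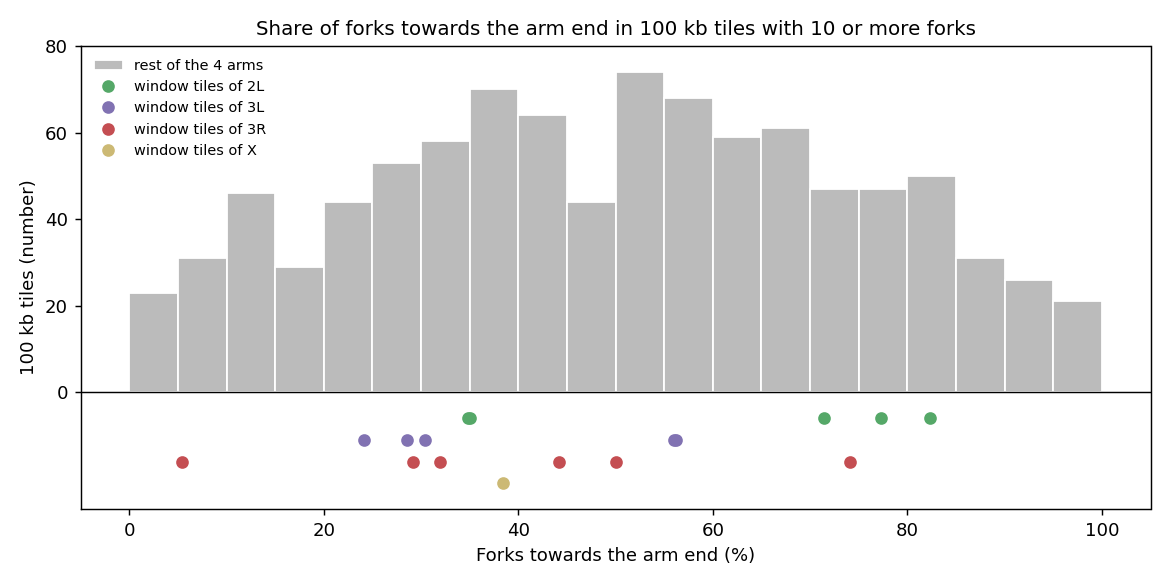
Histogram of the percentage of forks running towards the arm end in 100 kb tiles of the 4 arms with 10 or more forks (bars, number of tiles outside the windows), with the 17 window tiles as points below, coloured by arm and offset for legibility. The window tiles spread from 5.41% to 82.4% within the broad background distribution.

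Tile shares correlated between libraries, but in the windows their side of 50% often differed. Over 16 window tiles with at least 4 forks in each, the shares of the 7 and 15 min replicates 1 and 2 correlated with a Pearson coefficient of 0.616 and a Spearman coefficient of 0.679, against 0.764 and 0.764 over 811 other tiles. The 7 and 15 min replicates together and the other 3 libraries gave r = 0.680 over 13 window tiles and 0.694 over 699 other tiles. In that order of comparisons, both shares lay on the same side of 50% in 10 of 16 and 7 of 13 window tiles. Outside the windows this held for 591 of 811 and 496 of 699 tiles. These values are descriptions across tiles, which share neighbours and small fork numbers.

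On 3R the prevailing direction changed at 2 places, whose limits were set after the values were seen. From the end to 120 kb 40 of 42 forks ran inward, and from 180 to 240 kb all 21 forks of 4 libraries were tip-directed (Wilson interval 84.5 to 100%). Between 120 and 180 kb, 12 of 16 forks ran inward. The opposed streams faced each other inside heph, a gene of 168.5 kb at 3R 31846987 to 32015520 that encodes a polypyrimidine tract-binding protein. Forks centred in heph divided into 25 inward and 23 tip-directed ones. Both terminations of the outermost 240 kb of 3R lay in heph, at 130 and 182 kb from the end, the first in the 3 and 6 min replicate 3 and the second in the 7 and 15 min replicate 2. No origin was called in the gene.

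The second change lay proximal to heph, where most origins of this window lay. Of the 12 pulse origins of the 3R window, 9 lay between 235.8 and 362.4 kb from the end. From 240 to 340 kb forks ran both ways, 28 tip-directed and 17 inward, with 6 origins and 5 terminations among them. Further in, from 340 kb to the window limit, 63 of 97 forks ran inward. The genes heph and Map205 were chosen after their values were seen.

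**Figure D4:**
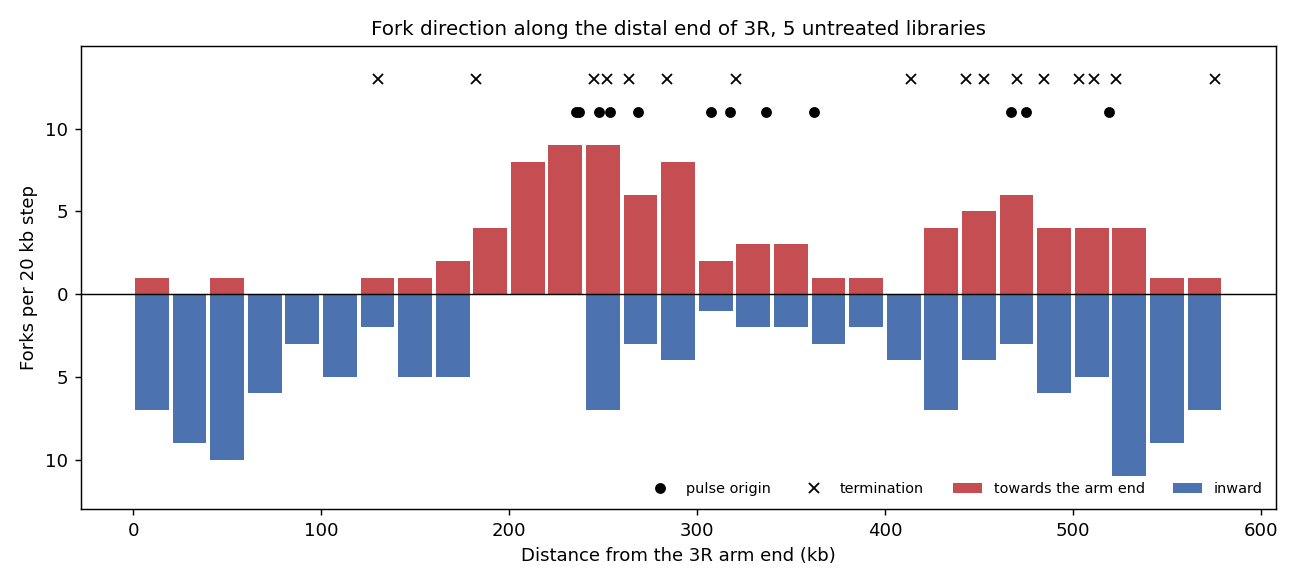
Number of forks per 20 kb step by distance from the 3R arm end (kb), tip-directed ones above and inward ones below the line, over the 5 untreated libraries, with pulse origins and terminations marked above. Inward forks fill the first 120 kb, the 21 forks between 180 and 240 kb are all tip-directed, and 2 terminations lie between 120 and 200 kb.

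A single molecule of the 7 and 15 min replicate 2 showed how close origins could lie there. Its read of 39.9 kb carried 4 forks, origins at 235.8 and 253.5 kb from the arm end, 17.7 kb apart, and between them a termination at 245 kb. Its tracks measured 6.06 to 8.52 kb. It was the only window read with more than 1 pulse origin. Of the 413 window reads 365 carried 1 window fork, 43 carried 2 and 5 carried 3 or more, and 4 of those 5 lay on 3R. All 5 came from the 7 and 15 min replicate 2.

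On 2L the order of directions was the opposite, again with limits set after the values were seen. Beyond the tip-directed outer 100 kb, 28 of 43 forks between 100 and 300 kb ran inward (tip-directed share 34.9%, 22.4 to 49.8%). Between 300 and 500 kb 27 of 36 were tip-directed (75.0%, 58.9 to 86.2%). No termination was called between 300 and 500 kb, and the 2 origins of this window lay at 289.8 kb (control) and 351.6 kb (7 and 15 min replicate 1). Of 13 forks centred in kis, which encodes the chromatin remodeller Kismet at 2L 210735 to 250823, 8 ran inward and 5 were tip-directed, and 2 of the 3 terminations of the 2L window, of the 7 and 15 min replicates 1 and 2, lay inside it at 218.6 and 242.5 kb. The third, 23.3 kb wide, was the outermost termination of all windows, 99.0 kb from the end in Zir, a guanine nucleotide exchange factor gene at 2L 94739 to 102086. Forks over l(2)gl, the tumour suppressor and cell polarity gene at 2L 9839 to 21376, numbered 5 from 4 libraries, 3 of them tip-directed.

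On 3L no single direction held over the outer part. Tip-directed forks made up 6 of 21 from 100 to 200 kb (28.6%, 13.8 to 50.0%), 14 of 25 from 200 to 300 kb (56.0%, 37.1 to 73.3%) and 14 of 52 from 300 to 500 kb (26.9%, 16.8 to 40.3%). All 5 pulse origins of this window came from the 7 and 15 min replicate 2. They included the outermost origin of any arm, a call 18.7 kb wide. Its midpoint lay 75.8 kb from the end and 0.483 kb outside CG13405 (3L 73945 to 75332). The tile at 3L 330001 to 340000 held an origin of that replicate and a gradient origin, with a mean midpoint inside both Ptpmeg, a protein tyrosine phosphatase gene, and mthl10, a gene of the Methuselah-like receptor family. Terminations met in Pdk1, a protein kinase gene, at 140.0 and 145.8 kb, both of the 7 and 15 min replicate 2, and that gene was chosen after its values were seen. Within trh, which encodes the tracheal transcription factor Trachealess, 2 of 4 forks were tip-directed, and a termination of the 3 and 6 min replicate 4 lay there.

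On X 16 of 36 forks were tip-directed, 44.4% (29.5 to 60.4%), and no 100 kb step had an interval that left out 50%. The window holds the achaete-scute complex, whose genes ac, sc, l(1)sc and ase encode proneural transcription factors, beside the cuticle pigment gene y. No fork, origin or termination midpoint fell inside these 5 short genes. Tracks overlapping them numbered 2 over y, 4 over ac, 4 over sc, 2 over l(1)sc and 3 over ase, with 0, 1, 3, 1 and 2 tip-directed. Of the 2 forks in ewg, the gene of the Erect wing transcription factor, 1 ran each way. The midpoints of a termination, 27.9 kb wide, and of the only gradient origin of the X window lay in svr. This carboxypeptidase gene, 12.6 kb long, was centred just outside the window. Among the other listed landmarks, ttk on 3R, which encodes the zinc finger repressor Tramtrack, held 4 forks, 3 of them tip-directed, and 1 origin. awd, a nucleoside diphosphate kinase gene, held no midpoint but was overlapped by 3 tracks, 2 of them tip-directed. The neuronal gene elav lay outside the window.

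Fork density differed by arm. The 3R window held 381.5 forks per Mb against 240.8 in the rest of 3R, with a ratio between 0.598 and 2.01 over the libraries and above 1 in 4 of 5, the exception being the control. On 2L the values were 192 and 270.8 per Mb, on 3L 228 and 228.9 and on X 72 and 135.8. The X ratio was below 1 in 4 of 5 libraries. Over all windows the ratio was 0.969 ± 0.128 (SD, n = 5). The files hold only reads with calls, so the density joins the copy number of a region, how often its reads were sequenced and how many of its molecules were replicating, and these cannot be told apart. Protein-coding genes numbered 84.6 per Mb in the 3R window and 106.3 in the rest of 3R, against 138 and 112.5 on 2L. For 3L the gene densities were 116 and 97.1 per Mb, and for X 68 and 93.9.

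Track lengths near the ends did not differ from those elsewhere by more than the spread between libraries. The median track in the windows was 14.4 kb in the control, where the 22 tracks ran from 4.33 to 38.65 kb. It was 11.5 and 14.5 kb for the 7 and 15 min scheme and 7.14 and 9.10 kb for the 3 and 6 min scheme, each pair in the order of replicates. In the rest of the arms the medians were 14.02, 13.8, 15.03, 8.41 and 8.88 kb in the same order of libraries. Windows gave the shorter median in 3 of 5 libraries. The mean log2 ratio was -0.09 ± 0.14 (SD, n = 5; exact sign-flip test, p = 0.312, adjusted p = 0.5), or 0.937 times the length in the rest, and it was -0.0082 without 3L. EdU segments had a mean log2 ratio of -0.06 ± 0.17 and BrdU segments one of -0.12 ± 0.37 (SD, n = 5).

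Reads in the windows were also shorter, with a mean log2 ratio of median read length of -0.30 ± 0.17 (SD, n = 5) and the same direction in 5 of 5 libraries. Their part in the track lengths was not tested. A BrdU end lay within 1 kb of the read end in 27.8% of window forks (24.0 to 32.1%) and in 26.1% of the others (25.6 to 26.7%). Complete forks, with 5 kb or more of read beyond either end and no origin or termination within 1 kb, numbered 134 of 467 in the windows. Their pooled median track was 14.01 kb, against 14.5 kb for 7031 complete forks elsewhere.

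Tracks running towards the end and away from it did not differ beyond the spread between libraries. Tip-directed and inward medians were 13.4 and 19.5 kb in the control (11 forks each), 11.4 and 11.6 kb in the 7 and 15 min replicate 1 (61 and 83), and 14.9 and 13.9 kb in its replicate 2 (97 and 119). They were 7.10 and 7.54 kb in the 3 and 6 min replicate 3 (23 and 24) and 8.12 and 9.38 kb in the replicate 4 (12 and 26). Tip-directed tracks had the shorter median in 4 of 5 libraries, with a mean log2 ratio of -0.15 ± 0.24 (SD, n = 5; exact sign-flip test, p = 0.25, adjusted p = 0.5). The direction was not stable: with all forks pooled the log2 ratio was 0.04, and with forks of the newer caller version alone it was 0.11 over 4 libraries. On X the pooled window median was 16.0 kb against 12.4 kb in the rest of X, a comparison that rested mainly on the 7 and 15 min replicate 2 with 21 of the 36 forks (16.0 against 14.1 kb). The window median was also longer in the control (25.0 against 14.2 kb, 4 window forks) and the 7 and 15 min replicate 1 (14.3 against 12.9 kb, 6). The same held for the 3 and 6 min replicate 3 (9.92 against 8.37 kb, 1). The 3 and 6 min replicate 4 showed the opposite order, 6.74 against 9.40 kb over 4 window forks.

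**Figure D5:**
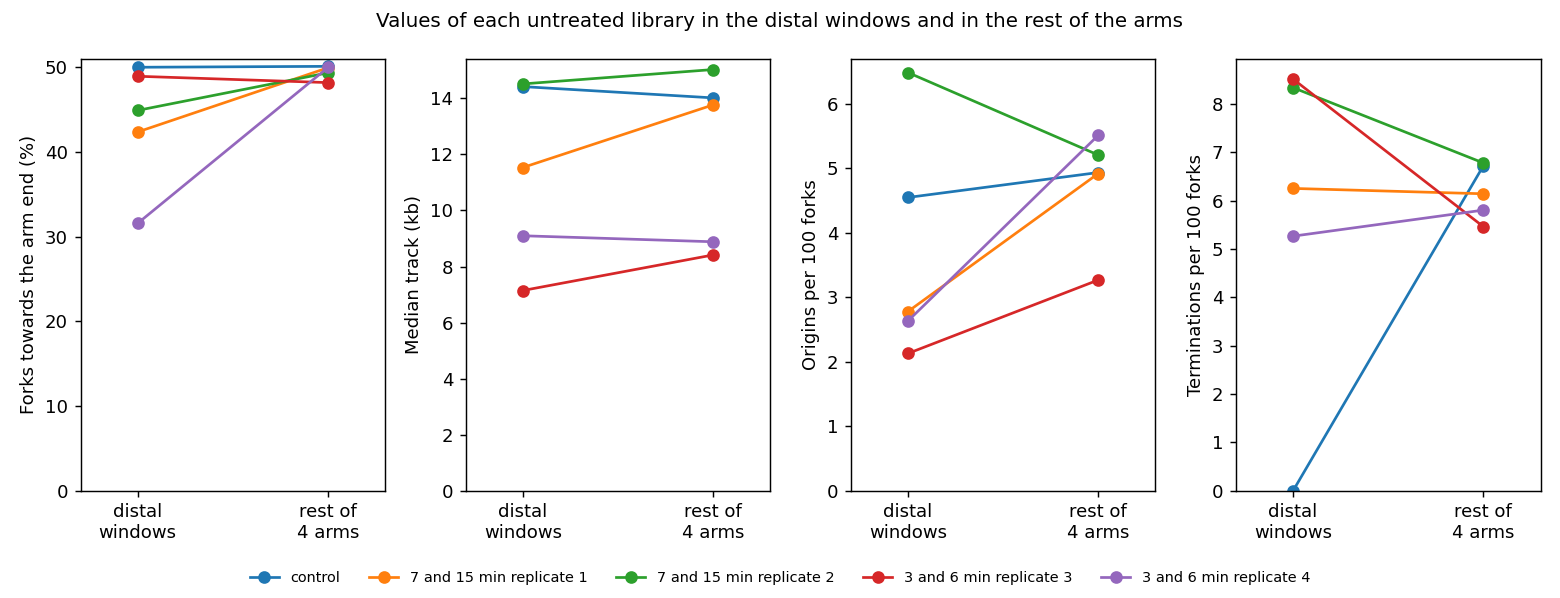
Values of the 5 untreated libraries (lines) in the distal windows and the rest of the 4 arms, from left to right the percentage of tip-directed forks, median track length (kb), origins per 100 forks and terminations per 100 forks, all axes from 0. The windows lie lower in tip-directed share in 4 of 5 libraries, with a difference of only -0.107 points in the control. In no panel do all 5 libraries change in the same direction.

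The rates of origins and terminations per fork did not pass a test against the rest of the arms. The windows held 1 origin of the control, 4 and 14 of the 7 and 15 min replicates 1 and 2, and 1 each of the 3 and 6 min replicates 3 and 4. Per 100 forks this was 4.55, 2.78, 6.48, 2.13 and 2.63 in that order, against 4.93, 4.92, 5.20, 3.27 and 5.51 in the rest. The raw rate was lower in the windows in 4 of 5 libraries. With 0.5 added to each count, the mean log2 ratio was -0.07 ± 0.50 (SD, n = 5; exact sign-flip test, p = 0.688, adjusted p = 0.786), and 14 of 21 origins came from a single library. The added 0.5 raises window counts of 1 far more than the larger counts of the rest. In the control, where the raw rate was lower in the windows, it gave a log2 ratio of 0.457. The size of the mean ratio therefore depends on this addition. Pooled, the outer 250 kb gave 3.5 origins per 100 forks (1.71 to 7.05) and the inner part 5.24 (3.15 to 8.61). A single origin lay within 100 kb of an arm end, that of 3L, and none lay in the outermost 120 kb of 3R, where forks ran inward.

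Terminations numbered 0, 9, 18, 4 and 2 in the same order of libraries, or 0, 6.25, 8.33, 8.51 and 5.26 per 100 forks, against 6.72, 6.14, 6.78, 5.46 and 5.80 in the rest. The mean log2 ratio was -0.03 ± 0.90 (SD, n = 5; exact sign-flip test, p = 1), with a ratio above 1 in 4 of 5 libraries, though the raw rate was higher in 3 of 5. Without the control, which had no termination over 22 forks, it was 0.35. Zero-width terminations, where converging tracks touched, made up 19 of 33 in the windows (57.6%, 40.8 to 72.8%) and 73.4% of 1476 elsewhere (71.1 to 75.6%). Zero-width origins made up 7 of 21 (33.3%, 17.2 to 54.6%) and 44.7% of 1147 elsewhere (41.9 to 47.6%). Sister forks of an origin showed no common direction of difference. Over 21 sister pairs the tip-directed sister was longer in 11, with medians of 8.52 kb for tip-directed and 10.5 kb for inward sisters and a median log2 ratio of 0.0049, while single pairs differed as widely as 6.72 and 24.97 kb. The 6.72 kb sister ended at a termination on the same read. For 6 window origins a termination lay on the same read, and these pairs were not set apart. Over the 33 converging pairs the tip-directed fork was longer in 15.

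Ends of protein-coding genes stood 1 kb or less from 10 of 21 origin midpoints in the windows, 47.6% (28.3 to 67.6%), and in 43.5% (40.7 to 46.4%) of 1147 origins elsewhere. For terminations the values were 6 of 33, or 18.2% (8.61 to 34.4%), and 22.97% (20.9 to 25.2%). No difference between windows and rest was detectable at these numbers.

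Gradient origins were called in 1 library, so no test was made. Of its 1194 origins on the 4 arms, 1.42% lay in the windows (0.891 to 2.27%), against 1.80% of 1168 pulse origins (1.18 to 2.73%) and 1.97% of 23728 forks. The 17 calls lay on 8 reads. The 8 calls on 3R stood between 477.0 and 507.4 kb from the end, on reads with 4 calls each, and none lay nearer to the end of that arm. Their midpoints fell 3 times in CycG, the cyclin G gene at 3R 31596642 to 31612664. They fell 2 times in pygo, a gene of Wnt signalling, and 1 time in rod, which encodes a kinetochore protein. The calls in these 3 genes were only 0.001 to 0.012 kb wide. Median widths of gradient origins were 1.24 kb in the windows and 2.26 kb elsewhere. The midpoints of 2 pulse origins and 1 termination also lay in CycG. These calls were 64.0, 30.0 and 63.9 kb wide, against 16.0 kb for the gene, so they do not place an event inside it. The tile at 3R 31600001 to 31610000 held the midpoints of a gradient origin and of the 30.0 kb wide origin of the 7 and 15 min replicate 1. For 2 of the 21 pulse origins a gradient call lay 5 kb away or less. The nearest gradient origin to any end lay 142.3 kb inside 3L. pygo and rod were chosen after their values were seen.

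Stalled forks, those whose deposited stall score reached 0.5, numbered 3 of 12 scored forks in the control, 12 of 63 and 18 of 102 in the 7 and 15 min replicates 1 and 2, and 0 of 2 and 8 of 19 in the 3 and 6 min replicates 3 and 4. The share in the windows was lower by 4.83 ± 8.03 percentage points than in the rest (SD, n = 5; exact sign-flip test, p = 0.188, adjusted p = 0.5), and without the replicate 3, with its 2 scored forks, the difference was -1.33 points. Pooled, stalled forks made up 17.9% of 84 tip-directed (11.1 to 27.4%) and 22.8% of 114 inward ones (16.1 to 31.3%). In the outermost 100 kb of 3R they were 4 of 18, 22.2% (9.001 to 45.2%), against 22.1% of 9834 elsewhere on the arms. All 18 scored forks there ran inward, so the direction of the 4 stalled ones could not have differed and says nothing about stalling. Most of the 4 belonged to the 3 and 6 min replicate 4, whose own stalled share outside the windows was 45.3%. The pooled shares therefore mix libraries unequally and do not compare like with like. Of the 4 stalled forks, 3 ended between 39.1 and 47.6 kb from the arm end, a stretch chosen after its values were seen. These 3 came from the 3 and 6 min replicate 4 and the 7 and 15 min replicate 1.

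The share of tracks read on the nascent leading strand was 65.2% ± 5.03 in the windows and 62.5% ± 6.11 in the rest, a difference of 2.71 ± 5.24 percentage points (SD, n = 5; exact sign-flip test, p = 0.375, adjusted p = 0.5) that was positive in 3 of 5 libraries. It was -0.244 points with forks pooled over libraries, 7.18 points for the outermost 250 kb (exact sign-flip test, p = 0.0625, the smallest possible), 7.03 points for complete forks, 0.348 points for the outermost 1 Mb and 0.486 points without 2L.

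Some reads ended at the same base as others. At 15 positions in the windows, 3 or more reads ended within 10 bp of each other, 63 read ends in all. Set against the ends of the 412 reads whose first listed fork lay in a window this was 7.65%, against 4.30% for 20605 reads elsewhere. At the 3R assembly end 13 reads of all 5 libraries stopped together, and without that position the window share was 6.07%. Others were 2L 47515 to 47519, where 5 reads of 3 libraries stopped, 3R 31964275, where 4 reads of 3 libraries began, and 3R 31963617, where 5 reads of 2 libraries stopped. The last pair lay 115.1 and 115.7 kb from the 3R end, inside heph and within the inward-running stretch. The part of these positions in the fork directions was not tested.

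The forks next to the inner limits were as follows. The last fork inside the 3R window, 576.7 kb from the end, was tip-directed with a track of 15.8 kb, and the first outside, at 581.0 kb, was tip-directed with 11.2 kb. On 3L the corresponding forks, at 499.4 and 501.8 kb, had tracks of 18.3 and 29.02 kb and ran inward and tip-directed. On 2L the nearest forks lay at 474.2 kb (tip-directed, 13.5 kb) and 501.3 kb (inward, 18.7 kb), and on X at 480.8 kb (29.4 kb) and 525.9 kb (26.1 kb), both tip-directed.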

How the data were processed

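The submitters' processing notes name minimap2 2.24, SAMtools 1.10 and dm6, and base calling is not given in the sources used here. Forks, origins and terminations are calls of DNAscent forkSense, version 4.0.1 or 4.0.3, with EdU as the earlier analogue, per the file headers. The deposited fork files give coordinates and lengths in bp, a stall score that is negative for unscored forks, and 4 deposited fractions that were not used.

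Windows, lengths and rates were computed in Python 3.11.15 with scipy 1.17.1, pandas 2.3.3 and numpy 2.4.6, and plotted with matplotlib 3.10.9. The 3R end was the furthest mapped base of any read with a fork. Fork reads in common between libraries numbered 0. Values were compared within each library by exact sign-flip tests, 8 in all, whose calculation was tested on simulated data. The values were those of windows and rest, of the outer and inner part of the windows, or of tip-directed and inward window forks. Since no label states separate cultures, the p-values measure the spread between libraries, which may be technical.

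Gene spans, without strand, came from a RefSeq table of Release 6, the assembly of dm6. Genes were named by a rule, except those said in the text to be chosen after their values were seen: those at origins or terminations within 100 kb of an end, those at 10 kb tiles with calls of 2 libraries, and 13 landmarks. One gene that the rule names is not reported here. Members, lists and tests were chosen with earlier results of these data known. Alternatives changed windows, arms, libraries, reads, forks and thresholds. The analogue segment files and the library with HU were not used here.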

Additional observations from a re-analysis of the deposited data

Results flagged for a closer look

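In the 3 and 6 min replicate 3 the stalled share was 18.8 percentage points lower in the windows than in the rest (a difference of -18.8), far from the other 4 libraries, whose differences ran from -3.21 to 0.911 points. It rests on 2 scored forks in the windows. About 1 in 20 groups is expected to stand out in this way by chance, and 8 were examined.

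The leading-strand share was lower in the windows than in the rest in both 7 and 15 min replicates, by a mean difference of -2.16 percentage points, and higher in both 3 and 6 min replicates, by 5.40 points. In the control, which had the 7 and 15 min pulses too, it was higher by 7.07 points, so the libraries of that scheme did not share a direction. The difference between these pairs of replicates was not tested. The newer caller version gave 11.8% and 8.33% of the window forks of the former replicates, 100% of those of the latter and 0% of those of the control.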

How the results depend on the processing

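The lower tip-directed share of the windows and the shorter tracks against the rest kept their direction in 19 of 19 alternatives each, without passing the threshold in any, but not their size. The share difference ranged from -10.4 points (outermost 250 kb) to -1.15 (without 3R), with -10.3 without 2L and -2.32 without the outermost 100 kb of 3R, and the track ratio was -0.0082 without 3L. Leaving out 1 library gave ranges of -7.63 to -2.85 and, for the outer against the inner part, -11.4 to -4.69 percentage points for the tip-directed share, -0.13 to -0.053 (log2) for track length, -0.21 to -0.054 for tip-directed against inward tracks, -0.21 to 0.073 for origins, -0.24 to 0.35 for terminations, -6.27 to -1.33 points for stalling and 1.21 to 4.40 points for the leading strand. The origin ratio, with a constant added to each count as above, turned to 0.073 without the 7 and 15 min replicate 1. Without the 3 and 6 min replicate 4 it was 0.031. The constant gave the control 0.457, although its raw rate was lower in the windows (4.55 against 4.93 per 100 forks). Only the 7 and 15 min replicate 2 had the higher raw rate in the windows (6.48 against 5.20). For both settings the positive sign therefore depended on the constant. The origin ratio also turned to 0.17 without 3L and to 0.021 with reads of 50 kb or more. In settings chosen after seeing the data it was 0.033 with 500 kb on every arm and 0.055 without the outermost 100 kb of 3R. The termination ratio turned to 0.35 without the control, 0.33 without 2L, 0.058 without 3R, 0.010 without X, 0.36 with reads of 50 kb or more, 0.18 pooled, 0.056 with the outermost 1 Mb and 0.097 without the outermost 100 kb of 3R. Without the latter the outer against the inner part gave 0.938 points. Tip-directed against inward tracks gave 0.039 pooled and 0.11 with the newer caller version. The stalled share gave 1.55 points with the outermost 250 kb and 5.81 with the outermost 1 Mb, the leading share -0.244 points pooled, and gradient minus pulse origins 0.102 points with the outermost 1 Mb. Apart from the constant in the origin ratio, the cause of these turns was not tested. Few calls per library limit all ratios. All 8 tests pair values within a library, some of them parts or fork directions of the windows rather than windows and rest. No paired analysis was possible because the labelled groups share fewer than 2 replicate numbers, and this concerns only pairing of libraries across groups.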
